A study of Mus musculus with 24 samples.

Results

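Gfap, Aqp4, Slc1a2, Slc1a3, Aldh1l1, Aldoc, Gdf10, Hopx, Acsbg1 and Agt are used as marker genes of astrocytes and of Bergmann glia, the radial astrocytes of the cerebellum. Their levels were followed in the frontal cortex and cerebellum of mice on Illumina MouseWG-6 v2.0 arrays, a bead platform that reports 1 intensity per probe. Every probe that the platform annotation assigns to 1 of the 10 genes was taken, and a probe was kept where its detection p was under 0.05 on at least 6 of 24 arrays. This left 15 of 20 annotated probes, with at least 1 for each of the 10 genes, of 21113 kept probes and 11439 named genes on the array. The animals were 12 naive SJL/JOrlCrl mice at 10 weeks of age, described as littermates, with males and females in equal number. They gave 4 groups of 6 arrays: male frontal cortex, female frontal cortex, male cerebellum and female cerebellum, with both tissues taken from each of 12 animals. The stated purpose was to find transcripts that differ in the female cerebellum.

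Astrocytes clear glutamate and potassium around synapses, line blood vessels with endfeet and supply neurons with metabolites. In the cerebellum the Bergmann glia, whose cell bodies lie beside the Purkinje cells, send fibres through the molecular layer and wrap the parallel fibre synapses, while velate astrocytes lie among the granule cells. Textbook accounts give GLAST (Slc1a3) as the leading glial glutamate transporter of the cerebellum and GLT-1 (Slc1a2) as that of the forebrain. Gdf10 and Hopx are in common use as markers of Bergmann glia in mice.

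Median signal per array ran from 69.3 to 75.2 intensity units, with 18099 to 19927 probes detected and a mean of 44.1 to 45.6 beads per probe. Over the kept probes, pairs of arrays within a group had correlations of 0.983 to 0.995, and no pair from different tissues exceeded 0.934. The tissue labels were set beside neuronal genes. All 6 measured granule cell markers and all 3 measured Purkinje cell markers were higher in cerebellum. All 3 measured markers of cortical neurons (Lamp5, Fezf2 and Tbr1) were higher in frontal cortex. The marker lists were chosen with earlier results known, and the cortical markers after their levels had been seen, so this is a description and not a test. Sample labels also mark 2 sets of animals by tags whose meaning is not given, here called label batch a (2 arrays per group) and label batch b (4 arrays per group). All values below are log2 levels after background correction and quantile normalization, and all adjusted p-values are from limma with Benjamini-Hochberg adjustment over the 21113 kept probes. Each gene is represented by its brightest kept probe unless another is named. Probes differ in how strongly they bind, so levels are not compared between genes.

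In cerebellum against frontal cortex, 7 of the 10 genes were higher, 2 were lower and 1 (Aldh1l1) did not pass the test at an adjusted p of 0.05. The background was high: 70.5% of 11439 named genes passed the same test, 37.6% as higher and 32.9% as lower, and of all kept probes 67.8% passed. The 9 of 10 genes called are read against these shares. The median log2 difference of the 10 genes was 1.05, and that of all named genes was 0.03. Gdf10, Agt and Hopx had differences above 2 on the log2 scale, and Aldoc, Slc1a3, Acsbg1 and Aqp4 lay close together between 1.04 and 1.10. Slc1a2 and Gfap went the other way. The tissue groups of 8 of the 10 genes did not overlap by their brightest probe. Of all kept probes, dimmer ones included, 27.3% did not overlap, and the share over brightest probes alone was not computed. In tissue samples of this kind, fewer cells of a type and less RNA per cell cannot be told apart.

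**Figure D1:**
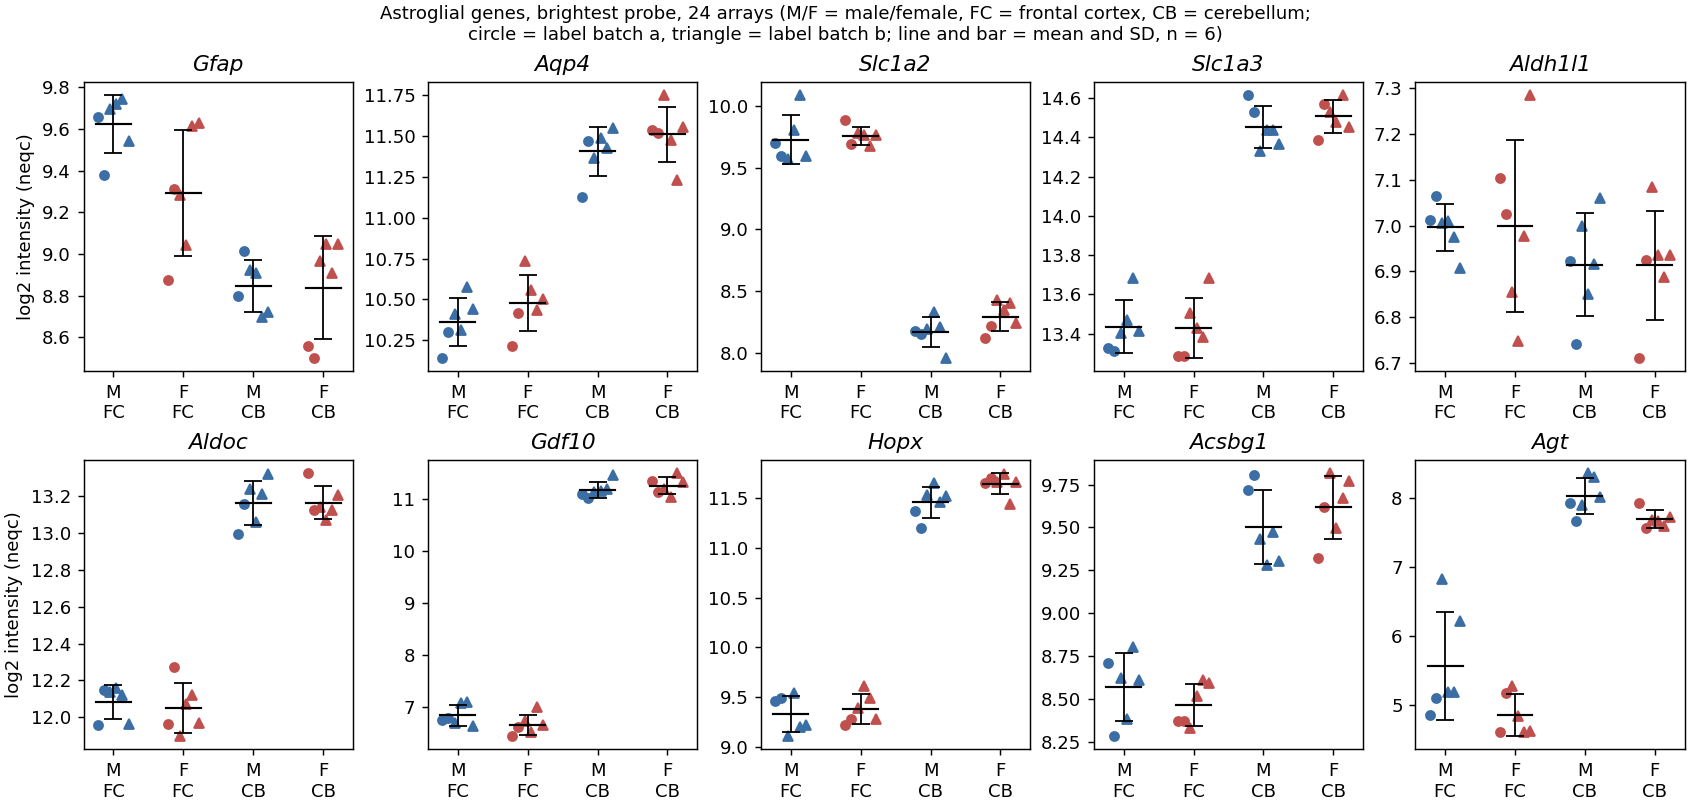
Log2 level (y axes, which differ between panels and do not start at 0) of the brightest probe of each of 10 astroglial genes in 24 arrays, by sex and tissue, with the mean and SD of 6 arrays per group. Cerebellum lies wholly above frontal cortex for Gdf10, Agt, Hopx, Aldoc, Slc1a3, Acsbg1 and Aqp4, wholly below it for Slc1a2, and overlaps it for Gfap and Aldh1l1.

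Promoter windows from RefSeq (assembly GRCm38.p6, from 250 bases before to 50 bases after each start) matched 9 of the 10 genes, as 11 windows. The windows of 2 genes that were higher in cerebellum, Gdf10 and Agt, and of the 2 that were lower, Slc1a2 and Gfap, are shown so that genes of opposite direction can be set side by side. Capitals mark matches on either strand to any of 4 motifs, each searched without regard to overlap with another. The palindrome that STAT factors bind was searched as TTCNNNGAA. The GC box, a common element of promoters of broadly used genes, was searched as GGGCGG. For the TATA box, which places the start of transcription, the letters were TATAAA. The half-site of nuclear factor I, a family that acts on many astrocyte genes, was searched as TTGGC.
Gdf10, chr14:33923337-33923636, plus strand: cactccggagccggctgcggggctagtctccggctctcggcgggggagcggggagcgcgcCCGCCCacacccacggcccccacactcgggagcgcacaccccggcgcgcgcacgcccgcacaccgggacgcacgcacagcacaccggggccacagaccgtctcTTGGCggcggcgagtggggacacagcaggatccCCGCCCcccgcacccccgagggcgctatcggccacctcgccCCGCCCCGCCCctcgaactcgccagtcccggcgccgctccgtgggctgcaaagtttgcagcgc
Agt, chr8:124569657-124569956, minus strand: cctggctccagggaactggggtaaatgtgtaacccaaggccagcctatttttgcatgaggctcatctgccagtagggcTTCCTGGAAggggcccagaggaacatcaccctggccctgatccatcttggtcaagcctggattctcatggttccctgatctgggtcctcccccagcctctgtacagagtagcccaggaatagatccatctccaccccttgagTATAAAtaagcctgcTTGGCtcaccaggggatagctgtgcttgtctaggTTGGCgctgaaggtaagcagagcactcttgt
Slc1a2, chr2:102706188-102706487, plus strand: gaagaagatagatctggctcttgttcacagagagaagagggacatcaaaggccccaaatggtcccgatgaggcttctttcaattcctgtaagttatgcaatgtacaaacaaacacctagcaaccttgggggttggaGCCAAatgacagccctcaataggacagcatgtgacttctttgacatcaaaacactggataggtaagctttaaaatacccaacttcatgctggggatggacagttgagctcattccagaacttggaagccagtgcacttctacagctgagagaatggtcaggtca
Gfap, chr11:102897151-102897450, minus strand: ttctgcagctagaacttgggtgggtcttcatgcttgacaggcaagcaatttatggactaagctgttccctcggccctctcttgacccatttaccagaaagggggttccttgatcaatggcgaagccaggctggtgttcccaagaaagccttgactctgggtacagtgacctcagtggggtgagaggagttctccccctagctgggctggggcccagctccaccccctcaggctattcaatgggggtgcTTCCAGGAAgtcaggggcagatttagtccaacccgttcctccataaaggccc
The Gdf10 window is rich in C and G and held 4 GC boxes, the Agt window held a TATA box 30 bases before the start, and the Gfap window held 1 STAT palindrome at the start itself. The STAT palindrome was found in 5 of the 11 windows (Acsbg1, Agt, Aldoc, Gfap and Slc1a3), against 8.30% of 32851 windows of the genome. The half-site of nuclear factor I was found in 6 of 11 windows against 46.7% of all windows. GC boxes were found in 4 of 11 windows against 35.7%, and TATA boxes in 2 of 11 against 13.6%. These are letter matches, not measured binding, and genes of both directions carried the STAT palindrome.

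Among secreted proteins and regulators, Gdf10 showed the largest difference of the 10 genes. It encodes a ligand of the TGF-beta superfamily, also called BMP3b. Its log2 level ran from 6.63 to 7.10 (median 6.76) in male frontal cortex and from 6.43 to 6.99 (median 6.63) in female frontal cortex. In cerebellum the range was 11.03 to 11.47 (median 11.15) in males and 11.05 to 11.50 (median 11.26) in females. All cerebellar arrays lay far above all cortical ones, and the probe was detected on all 24 arrays. The log2 difference was 4.48 ± 0.07 (SE), a 22.3-fold higher intensity, with an adjusted p of 1.26e-26. Within single animals the difference ran from 4.08 to 4.91, higher in cerebellum in 12 of 12.

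Agt encodes angiotensinogen, the precursor of the angiotensins, which astrocytes make in the brain. In male frontal cortex its log2 levels in replicates 1 to 6 were 4.85, 5.10, 6.83, 5.19, 5.19 and 6.22. In female frontal cortex they were 4.60, 5.17, 5.27, 4.84, 4.61 and 4.62, with the probe detected on 3 of those 6 arrays and on all arrays of the other groups. Levels in cerebellum ran from 7.67 to 8.36 (median 7.97) in males and from 7.56 to 7.93 (median 7.67) in females. Cerebellum was above frontal cortex throughout, and 2 male cortical arrays (replicates 3 and 6) stood above the other cortical arrays. The log2 difference was 2.65 ± 0.16 (SE), or 6.28-fold, with an adjusted p of 4.51e-14 and the same direction in 12 of 12 animals. In females, where the cortical probe was near the detection floor, the fitted difference was 2.84 on the log2 scale (adjusted p 2.99e-11). Its 95% interval ran from 2.37 to 3.31. With dim arrays set to the floor, the female difference was 2.77, or 6.81-fold higher in cerebellum. This floor is the dimmest signal among detected probes of each array, and a dim array was set to it. In males the fitted difference was 2.46. The size of the Agt difference depended on the background correction, since it was 1.67 on the log2 scale without one.

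Hopx encodes a small homeodomain protein that does not bind DNA. Its log2 level was 9.11 to 9.54 (median 9.34) in male and 9.22 to 9.61 (median 9.34) in female frontal cortex. In cerebellum it was 11.21 to 11.66 (median 11.50) in males and 11.45 to 11.75 (median 11.67) in females. The tissues were fully separate, and the difference was 2.20 ± 0.06 (SE) on the log2 scale, or 4.59-fold, with an adjusted p of 2.07e-21. It was higher in cerebellum in 12 of 12 animals, by 1.72 to 2.44. A further probe of Hopx, like a further probe of Aldh1l1, was detected on 0 of 24 arrays and was not used.

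The 2 glial glutamate transporters moved in opposite directions. Slc1a3, which encodes GLAST, had log2 levels of 13.31 to 13.69 (median 13.41) in male and 13.28 to 13.69 (median 13.41) in female frontal cortex. In cerebellum it reached 14.33 to 14.62 (median 14.43) in males and 14.39 to 14.62 (median 14.51) in females. The tissues did not overlap, and the difference of 1.05 ± 0.05 (SE) on the log2 scale was 2.07-fold, higher in cerebellum in 12 of 12 animals (adjusted p 1.32e-15). Slc1a2, which encodes GLT-1, had log2 levels of 9.57 to 10.09 (median 9.65) in male and 9.68 to 9.89 (median 9.77) in female frontal cortex. In cerebellum it lay at 7.96 to 8.33 (median 8.18) in males and 8.12 to 8.43 (median 8.29) in females. Here every cerebellar array was below every cortical one. Its difference was -1.51 ± 0.06 (SE) on the log2 scale, a 2.85-fold lower intensity in cerebellum, with an adjusted p of 1.84e-18 and the same direction in 12 of 12 animals. The brightest Slc1a2 probe is annotated to transcript NM_001077515 and the other kept probe to NM_001077514. That other probe was lower in cerebellum by a similar amount, with a log2 difference of -1.34 ± 0.05 (SE) and an adjusted p of 6.24e-19, again in 12 of 12 animals. A further 3 Slc1a2 probes were detected on 0, 0 and 2 arrays and were not used.

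Gfap, the intermediate filament protein of astrocytes, was lower in cerebellum. Its log2 levels in replicates 1 to 6 of male frontal cortex were 9.66, 9.38, 9.69, 9.72, 9.74 and 9.54, and in female frontal cortex 8.87, 9.31, 9.28, 9.05, 9.61 and 9.63. In cerebellum they ran from 8.70 to 9.01 (median 8.85) in males and from 8.50 to 9.05 (median 8.94) in females. The male groups did not overlap. The female groups did, because cortical replicate 1 (8.87) and replicate 4 (9.05) lay within the cerebellar range. Over all animals the log2 difference was -0.62 ± 0.08 (SE), or 1.53-fold lower, with an adjusted p of 3.08e-07 and 11 of 12 animals lower in cerebellum. The dimmer Gfap probe gave -0.44 ± 0.07 (SE) with an adjusted p of 6.54e-06, also lower in 11 of 12 animals.

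Aqp4, the water channel of astrocyte endfeet, went the opposite way to Gfap. In frontal cortex its log2 level was 10.14 to 10.58 (median 10.36) in males and 10.22 to 10.73 (median 10.47) in females. In cerebellum it was 11.13 to 11.55 (median 11.45) in males and 11.23 to 11.75 (median 11.53) in females. Cerebellum was higher in every animal and without overlap, with a log2 difference of 1.04 ± 0.07 (SE), or 2.05-fold, and an adjusted p of 9.60e-14. A dimmer Aqp4 probe, annotated to a different transcript record and detected on 9 of 24 arrays, differed by 0.07 (adjusted p 0.374). At most 3 of its 6 arrays were detected in any group, so it carries no measured difference in either direction.

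The remaining 3 of the 10 genes encode enzymes, and 2 of them were higher in cerebellum. Aldoc encodes aldolase C, a glycolytic enzyme of astrocytes that is also made by bands of Purkinje cells, where it is known as zebrin II. Its log2 level was 11.96 to 12.16 (median 12.13) in male and 11.90 to 12.27 (median 12.02) in female frontal cortex. In cerebellum it was 13.00 to 13.32 (median 13.18) in males and 13.07 to 13.33 (median 13.13) in females. The groups were separate, with a difference of 1.10 ± 0.05 (SE) on the log2 scale, or 2.14-fold, in 12 of 12 animals (adjusted p 1.29e-16). Its dimmer probe, detected on 7 of 24 arrays, differed by -0.07 (adjusted p 0.514). It too was detected on at most 3 of 6 arrays in any group and carries no measured difference in either direction. Since Purkinje cells also make Aldoc, the Purkinje markers stand beside this result: Pcp2 and Ppp1r17 were detected on 0 of 12 cortical arrays and on 12 of 12 cerebellar arrays. The mean log2 level of all 3 measured Purkinje markers, with Slc1a6 as the third, ran from 4.37 to 4.62 in frontal cortex and from 8.21 to 8.73 in cerebellum. Their part in the Aldoc difference was not tested.

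Acsbg1 encodes an acyl-CoA synthetase of the bubblegum family, which activates very long chain fatty acids. Its log2 level was 8.28 to 8.80 (median 8.61) in male and 8.33 to 8.61 (median 8.44) in female frontal cortex. In cerebellum it was 9.28 to 9.80 (median 9.45) in males and 9.32 to 9.82 (median 9.64) in females. Cerebellum was again wholly above cortex, by 1.04 ± 0.07 (SE) on the log2 scale, or 2.06-fold, with an adjusted p of 9.35e-13. Its dimmer probe gave 0.89 ± 0.07 (SE), or 1.86-fold, with an adjusted p of 7.98e-12, and both probes were higher in 12 of 12 animals.

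Aldh1l1 encodes 10-formyltetrahydrofolate dehydrogenase, a folate enzyme used as a marker of astrocytes throughout the brain. Its log2 level lay at 6.91 to 7.06 (median 7.01) in male and 6.75 to 7.29 (median 7.00) in female frontal cortex. In cerebellum it lay at 6.74 to 7.06 (median 6.92) in males and 6.71 to 7.08 (median 6.93) in females. The 4 groups overlapped almost completely. The log2 difference was -0.08 ± 0.06 (SE), with a 95% interval from -0.20 to 0.03 and an adjusted p of 0.196, and 9 of 12 animals were lower in cerebellum. It passed the threshold as lower when arrays were scaled by their median (-0.20, adjusted p 0.00385) or by cyclic loess (-0.15, adjusted p 0.0190).

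**Figure D2:**
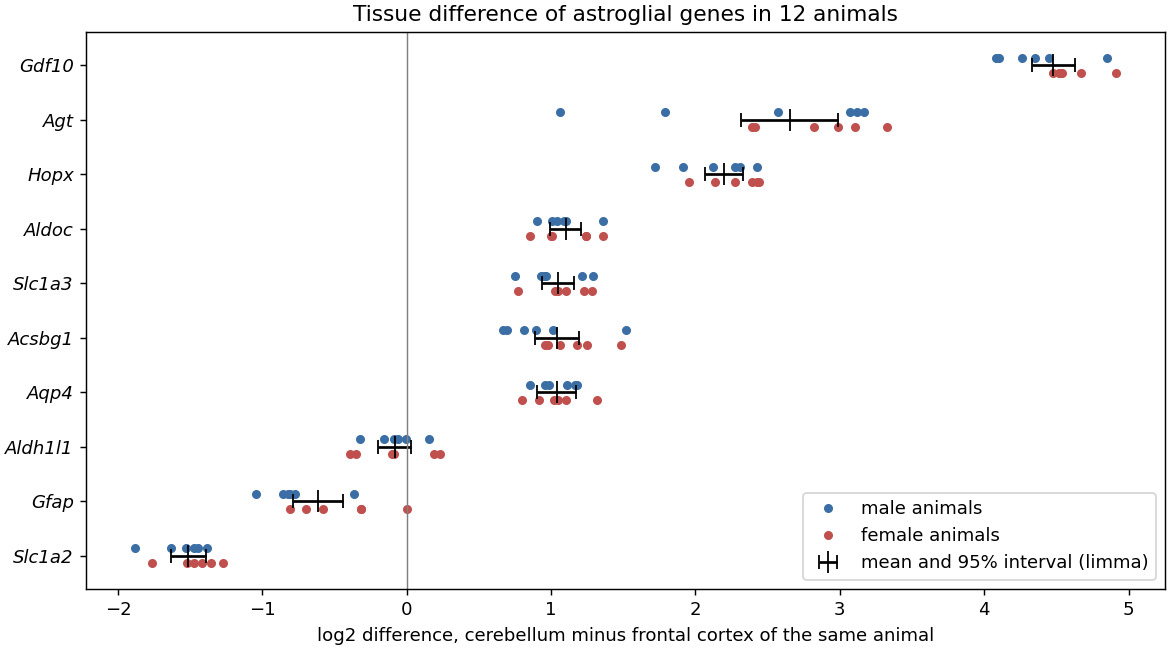
Log2 difference between the cerebellum and frontal cortex of each animal (x axis) for 10 astroglial genes, with 6 male and 6 female animals as points and the limma estimate with its 95% interval in black. Gdf10 runs from 4.08 to 4.91 and Agt from 1.06 to 3.33, while all 12 animals lie below 0 for Slc1a2.

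The within-group SD, pooled over the 4 groups, was lowest for Aldoc, at 0.11 on the log2 scale, and highest for Agt, at 0.44. Gfap followed with 0.22, and the median of all kept probes was 0.18. This SD holds array noise as well as differences between animals. By group, the Agt SD was 0.78 in male and 0.30 in female frontal cortex. In cerebellum it was 0.26 in males and 0.13 in females. Within an animal the Agt difference between tissues spread from 1.06 to 3.33, with both of its lowest values from the 2 males with high cortical levels. The highest came from female replicate 1, whose cortical probe was not detected. Within the label batches the differences kept their direction in all 10 genes. In batch a alone and batch b alone the log2 differences were 4.51 and 4.46 for Gdf10, 2.84 and 2.56 for Agt, 1.22 and 0.96 for Slc1a3, -1.55 and -1.49 for Slc1a2, and -0.59 and -0.63 for Gfap.

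Both sexes showed the tissue differences. In females 7 genes were higher and 2 lower in cerebellum, where 60.5% of named genes passed in either direction, and in males the counts were also 7 and 2, where 60.7% passed. The interaction of sex and tissue, which tests whether the tissue differences differ between the sexes, was passed by 0 of the 10 genes and by 0.0787% of named genes (9 genes). None of the 10 had an unadjusted p under 0.05 for it in limma either, against 6.80% of named genes. The largest fitted interaction was that of Agt, 0.38 ± 0.33 (SE) on the log2 scale with an adjusted p of 0.900 and a 95% interval from -0.29 to 1.05. Its size is not exact, since the probe was detected on 3 of 6 female cortical arrays. Gfap had an interaction of 0.33 ± 0.17 (SE), with a difference between tissues of -0.45 in females and -0.78 in males and an adjusted p of 0.733.

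No sex difference passed in either tissue. In cerebellum, the tissue the study asked about, 0 of 10 genes passed in limma, against 0.114% of named genes (13 genes), and 1 of the 10 had an unadjusted p under 0.05, against 5.46% of named genes. That gene was Hopx, which was 0.19 ± 0.09 (SE) higher in females on the log2 scale, with an adjusted p of 0.866 and overlapping groups. In the label batches it was 0.40 in a and 0.09 in b. For 8 of the other 9 genes the estimate lay between -0.01 and 0.12. The remaining gene was Agt, at -0.33 with a 95% interval from -0.81 to 0.14 and an adjusted p of 0.965. The 95% intervals of the genes other than Agt stayed within -0.25 and 0.37. Label batches a and b gave opposite signs for Gfap (-0.38 and 0.18), Acsbg1 (-0.29 and 0.32) and Slc1a3 (-0.09 and 0.13). The signs were also opposite for Aldoc (0.15 and -0.07) and Aldh1l1 (-0.01 and 0.004). Aqp4, Slc1a2, Gdf10, Hopx and Agt kept their sign, and no gene passed in either batch.

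In frontal cortex 0 of 10 genes passed in limma, against 0.157% of named genes (18 genes). Here 2 of the 10 had an unadjusted p under 0.05, Agt and Gfap, against 9.07% of named genes. Agt was detected on 3 of 6 female and 6 of 6 male arrays. With dim female arrays set to the detection floor, the female mean lay 1.56-fold below the male mean (-0.64 on the log2 scale). The fitted difference was -0.71 ± 0.23 (SE), with a 95% interval from -1.18 to -0.24 and an adjusted p of 0.242. The male and female ranges overlapped, and without background correction the fitted difference was -0.35. Without the 2 male arrays of high level, one at a time, the fitted difference was -0.46 (without replicate 3) and -0.58 (without replicate 6). It was -0.09 in label batch a and -1.02 in label batch b. These fitted values take the female arrays without detection at their measured level, so none of them is an exact size. Gfap was 0.33 ± 0.12 (SE) lower in females, with an adjusted p of 0.309 and a 95% interval from -0.58 to -0.09, and its dimmer probe differed by -0.10. Gfap was lower in both label batches, by -0.43 in a and -0.28 in b. Without female replicate 1, its lowest array, the difference was -0.25 (adjusted p 0.665).

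Other markers also moved in the frontal cortex samples. The mean log2 level of 6 striatal neuron markers ran from 7.36 to 8.57 in male and from 6.12 to 7.76 in female frontal cortex, so the cortical samples differed in those genes too. None of the 6 passed the test between the sexes, and 1 of 5 olfactory bulb markers was lower in females. Female replicate 1, lowest for Gfap, was also lowest in the means of the striatal, oligodendrocyte (9.56) and olfactory bulb (5.54) markers. Whether these markers have a part in the Gfap and Agt values was not tested.

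**Figure D3:**
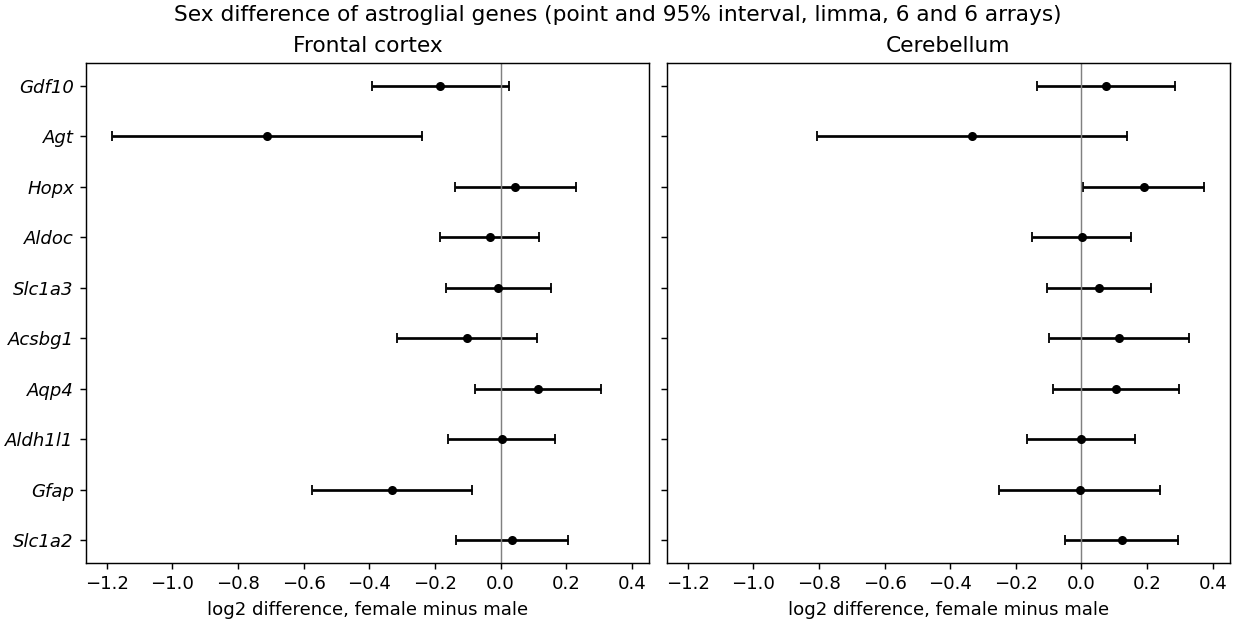
Log2 difference between females and males (x axis, female minus male) for 10 astroglial genes in frontal cortex (left) and cerebellum (right), as the limma estimate and its 95% interval from 6 and 6 arrays. Unadjusted intervals leave out 0 for Agt and Gfap in frontal cortex and for Hopx in cerebellum, and none passed after adjustment. The point for Agt in frontal cortex is the fitted value (-0.71), where setting dim female arrays to the detection floor gave -0.64.

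The label batches, compared over the 4 groups, differed in 0 of the 10 genes in limma and in 0.184% of named genes (21 genes). An unadjusted p under 0.05 was reached by 2 of the 10, Gfap and Aqp4, against 11.1% of named genes. Gfap was 0.21 ± 0.08 (SE) higher in label batch b on the log2 scale (adjusted p 0.318) and Aqp4 was 0.15 ± 0.06 (SE) higher (adjusted p 0.396).

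Whether the 10 genes vary together from animal to animal was examined on deviations from the sex mean, over 12 animals in each tissue and all 90 gene pairs. None passed after adjustment over the 90 pairs (smallest adjusted p 0.284, permutation test with 100000 resamples). An unadjusted permutation p under 0.05 was found for 7 of 45 pairs in cerebellum and 2 of 45 in frontal cortex. The share over pairs of other genes was not computed, so these counts are not read as a result. Pearson correlations ran from -0.76 to 0.68 in cerebellum and from -0.55 to 0.67 in frontal cortex, with medians of 0.01 and 0.03. The strongest, Slc1a3 with Aldoc in cerebellum, had r = -0.76 (permutation p 0.00458) and Spearman's rho = -0.71 (permutation p 0.0118, adjusted p 0.240). Without the 2 animals farthest from the median of Slc1a3 it was -0.66, and in the 8 animals of label batch b alone it was -0.43. Other cerebellar pairs also moved in label batch b alone. Slc1a3 with Acsbg1 went from 0.68 to -0.002, and Slc1a2 with Aldoc from -0.68 to -0.83. Label batch a holds 4 animals, too few for a correlation.

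Genes that share a cell type or a pathway with the 10 were counted on lists. For every list, the background is the share of all named genes called between tissues. That share was 70.5%, with 37.6% higher and 32.9% lower in cerebellum, and several lists lay near it. Of 34 other genes known from astrocytes 26 were measured, of which 15 were higher in cerebellum, 6 lower and 5 did not pass, with a median log2 difference of 0.34. The 4 with the largest differences were all higher: Itih3, a hyaluronan-binding chain (1.75), Gpr37l1, a receptor of astrocytes (1.56), Slc4a4, a sodium bicarbonate cotransporter (1.50), and Ednrb, the endothelin B receptor (1.41). Among genes known from Bergmann glia 8 of 12 were measured, with 6 higher, 0 lower and 2 that did not pass, and a median of 1.48. Dao, which encodes D-amino acid oxidase, was detected on 0 of 12 cortical and 12 of 12 cerebellar arrays and was at least 26.9-fold higher in cerebellum (fitted log2 difference 5.03, adjusted p 1.74e-28). Timp4, an inhibitor of metalloproteinases, was higher by 2.68, Ptch1, the hedgehog receptor, by 1.95, and Vim, the intermediate filament vimentin, by 1.52.

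Slc1a2 and Slc1a3 belong to a larger set of glutamate and glutamine carriers, and 10 of 15 other genes of that set were measured, with 6 higher, 2 lower, 2 not passing and a median of 0.32. Slc1a1, the neuronal glutamate transporter EAAC1, was lower in cerebellum by -1.64 on the log2 scale. Slc1a6, the glutamate transporter of Purkinje cells, was detected on 5 of 12 cortical arrays. With dim arrays set to the detection floor, Slc1a6 was 2.74-fold higher in cerebellum. Atp1b2, a sodium pump subunit of astrocytes, was higher by 1.60, and Slc38a2, a glutamine carrier, by 1.38.

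Around Agt, 4 of 12 genes of the renin-angiotensin system were measured, with 0 higher, 2 lower and 2 that did not pass. Mas1, the receptor of angiotensin 1-7, was detected on all 12 cortical and 0 of 12 cerebellar arrays, at least 7.63-fold lower in cerebellum (adjusted p 3.00e-21). Atp6ap2, the prorenin receptor, was lower by -0.14 on the log2 scale (adjusted p 0.0298). Over all animals the gene for the precursor was thus higher in cerebellum, and both called genes of the list were lower. Within females 1 of the 4 was called higher and 1 lower, and within males 0 were higher and 1 lower.

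Around Aldoc, 13 of 16 genes of glycolysis were measured, with 3 higher, 6 lower, 4 not passing and a median of -0.12. Ldha (lactate dehydrogenase A, -1.23), Pfkl (-0.73) and Pfkp (-0.61) were lower in cerebellum on the log2 scale and Pfkm was higher (0.64), the last 3 being the isoforms of phosphofructokinase. Around Aldh1l1, 6 of 11 folate enzymes were measured and all 6 were higher in cerebellum, with a median of 0.61. Shmt1, cytosolic serine hydroxymethyltransferase, was at least 2.07-fold higher (detected on 0 of 12 cortical arrays). Its mitochondrial counterpart Shmt2 was higher by 0.57 on the log2 scale, Aldh1l2, the mitochondrial relative of Aldh1l1, by 1.10 and Mthfd2 by 0.66. Around Acsbg1, 8 of 10 acyl-CoA synthetases were measured, with 2 higher, 4 lower, 2 not passing and a median of -0.15. Acsl5 (-2.67), Acsl4 (-0.83), Acss1 (-0.62) and Slc27a4 (-0.29) had the largest differences, all lower in cerebellum.

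Around Gfap, all 4 genes of a list of other intermediate filaments were measured. Of these 1 was higher (Vim, 1.52) and 2 were lower (Synm, which encodes synemin, -1.39, and Nes, which encodes nestin, -0.39). The last, Des, which encodes desmin, did not pass (-0.03). Of 18 genes that regulate Gfap or carry BMP and activin signals, 16 were measured, with 8 higher, 5 lower, 3 not passing and a median of 0.23. Nfia, Nfix and Nfib, the nuclear factor I genes of the list, were higher in cerebellum by 1.37, 0.75 and 0.71 on the log2 scale, and Bmpr1a, a BMP receptor, by 0.79. In these 9 lists no gene passed a test between the sexes in either tissue, and 6 genes stand on more than 1 list of this study.

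**Figure D4:**
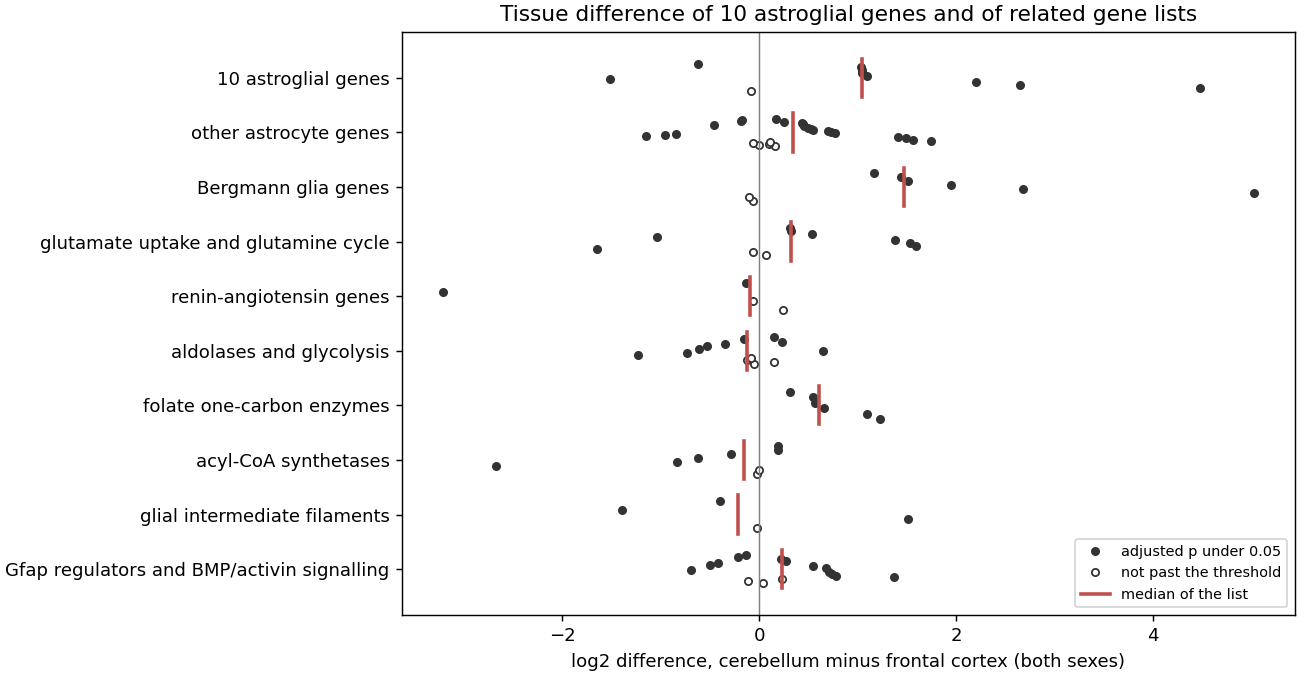
Log2 difference between cerebellum and frontal cortex over both sexes (x axis) of 10 astroglial genes and of 9 lists of related genes, 1 point per gene, filled where the adjusted p was under 0.05, with the median of each list in red. The median is 1.05 for the 10 genes, 1.48 for Bergmann glia genes, 0.34 for other astrocyte genes and -0.15 for acyl-CoA synthetases.

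Markers of other cell types differed between the tissues as well, where 37.6% of all named genes were called higher and 32.9% lower in cerebellum. Of 7 oligodendrocyte markers 6 were higher in cerebellum, 0 lower and 1 did not pass (median log2 difference 0.42), and of 7 microglial markers all 7 were lower (median -1.21). Of 6 endothelial markers 3 were higher and 3 did not pass (median 0.16), of 3 ependymal markers 2 were higher, and of 6 meningeal markers 4 were higher (median 0.51). The mean log2 level of 6 choroid plexus markers ran from 4.63 to 5.63 over frontal cortex and from 6.00 to 9.03 over cerebellum, and 5 of them were higher there. By sex, 5 choroid plexus markers were higher in females (median 1.56) and 2 in males (median 0.35). Of the oligodendrocyte markers, 6 were higher in females (median 0.59) and 2 in males (median 0.25). In both lists 0 markers passed the interaction of sex and tissue. The meningeal mean ran from 7.78 to 8.38 in frontal cortex and from 8.53 to 8.76 in cerebellum, and the microglial mean from 7.06 to 7.27 and from 5.89 to 6.13. Of 6 striatal markers 5 were lower in cerebellum, of 5 olfactory bulb markers 2 were higher and 2 lower, and of 4 pan-neuronal markers 2 were higher and 1 lower. Their part in the differences of the 10 genes was not tested.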

How the data were processed

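Total RNA (100 ng per sample) was amplified and labelled with biotin, per the labels' protocols. Per the file headers, the deposited scanner table holds for each probe a linear mean intensity over beads with the standard error of that signal, a detection p-value and a score giving the average number of beads. A second deposited table holds the authors' processed intensity values, ranked as in the scanner table within an array. Partek is named in the submitters' processing notes, and its role and version are not given in the sources used here. Probes were named from the platform annotation: 34885 of 45281 had 1 symbol, 18 several and 10378 none, and 34807 of the former were updated through a RefSeq table (GRCm38.p6).

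Deposited intensity values were normalized here with neqc in limma 3.58.1 (R 4.3.3, offset 16) and analysed as log2 values. The 24 arrays entered 1 fit with 4 group means (lmFit, eBayes, 20 residual and 5.82 prior degrees of freedom). The label batch was tested with an added term. Animal labels pair the tissues. Deviations of an animal's arrays from the group means correlated at -0.30 to 0.24, over 0.1 in 5 of 12 pairs, and the pairing entered as an alternative. A difference is given as a bound where 1 side was detected on at most 3 of 6 arrays (or the same share of 12). A bound, also where worded as at least, allows for dim arrays only. It leaves out sampling error and the choice of background correction. The adjusted p beside a bound is that of the fitted difference. The number of arrays limits the precision.

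The 10 genes and all lists were chosen with earlier results of these data known, and the cortical neuron markers were added after the levels had been seen. All 10 genes and, of each list, up to 4 called genes with the largest tissue difference are named, plus genes that a result turns on, chosen after their values were seen. Alternatives covered background correction, normalization, filter, variance model, label batch, neighbouring array columns, animal and each array left out.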

Additional observations from a re-analysis of the deposited data

Results flagged for a closer look

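Within the groups of 6 arrays, a single array far from the rest was found in 2 of 60 groups tested over the 15 probes by Dixon's ratio of gap to range, where chance gives about 1 in 20. Hopx had its lowest level in female cerebellum replicate 5, at 11.45 on the log2 scale (ratio 0.708), still above every cortical array. The dimmer probe of Aqp4 had its lowest level in female frontal cortex replicate 3, at 4.42 (ratio 0.670), where that probe was detected on 2 of 6 arrays.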

How the results depend on the processing

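All tissue calls of the 10 genes kept their direction under every alternative run. The count of genes called over all animals was 9, and it was 10 under median scaling and cyclic loess, which add Aldh1l1, and 8 among probes detected on all 24 arrays, where Agt is not tested. It stayed at 9, with 7 higher and 2 lower, when each array was left out in turn, and 0 of 10 passed a test of sex, interaction or label batch in any alternative. Of 1746 single tissue values compared, 1740 kept their side of the threshold. Of the rest, 3 passed only in the alternative (Aldh1l1 over all animals in both scalings and in females at -0.22 under median scaling) and 3 no longer passed in label batch a alone, with 2 arrays per group. Those were the dimmer probes of Acsbg1 in males (0.42, adjusted p 0.0652) and of Gfap in females (-0.39, adjusted p 0.180) and males (-0.42, adjusted p 0.137). Without background correction the log2 difference was 3.94 for Gdf10 and 1.67 for Agt. Sizes also moved with the normalization. Median scaling gave 0.80 for Aqp4, 0.84 for Slc1a3, 0.82 for Aldoc, 0.87 for Acsbg1 and -0.79 for Gfap. Cyclic loess gave 1.00, 1.17, 1.09, 0.99 and -0.66 for the same genes in that order. Of all probes called between tissues, 7770 were higher and 6545 lower in cerebellum (54.3% higher), and 6109 and 7833 under median scaling (43.8% higher). Pairing the tissues with the animal as a fixed replicate block gave 4.48 for Gdf10 (adjusted p 1.09e-17) and -0.62 for Gfap (adjusted p 1.40e-06), and changed no call of the 10 genes.

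Counts over all named genes, which serve only as background, moved more, and the cause was not tested. Sex in frontal cortex had 18 calls, and 30 without background correction, with normexp by maximum likelihood and in the authors' values. It had 11 without a filter, 8 among probes detected on all 24 arrays, 38 with array weights, 40 with the label batch as a block and 2 with cortical arrays alone. Sex in cerebellum had 13, and 1 among probes detected on all 24 arrays and 29 with array weights. The interaction had 9, and 5 without background correction, with normexp by maximum likelihood, in the authors' values, under median scaling and with the animal as a fixed replicate block, and 1 among probes detected on all 24 arrays. The label batch had 21, and 57 without background correction, with normexp by maximum likelihood and in the authors' values. It had 3 without a filter, 40 among probes detected on all 24 arrays, 44 with a trend and robust moderation and with the animal as a random replicate block, and 0 under median scaling and array weights. Label batch a alone gave 4288 for tissue in females (6918 with all arrays), 0 for sex in frontal cortex, 4 for sex in cerebellum and 0 for the interaction, and label batch b alone gave 144, 80 and 37 for the last 3. With each array left out, sex in frontal cortex ranged from 5 (without male replicate 5) to 64 (without male replicate 1), the label batch from 3 (without male frontal cortex replicate 5) to 30 and the interaction from 5 to 9. The number of arrays limits the precision, most for Agt, whose cortical signal lay near the background.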

Other observations

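The 6 astrocyte genes that were lower in cerebellum, and the AMPA receptor genes of Bergmann glia, were chosen for description after their values were seen. Slc6a11, which encodes the GABA transporter GAT-3, was lower in cerebellum by -1.15 ± 0.08 (SE) on the log2 scale (limma adjusted p 4.58e-13). Mfge8, a secreted factor that tags cells for uptake, was lower by -0.96, and Bcan, which encodes the matrix proteoglycan brevican, by -0.84. Prodh (proline dehydrogenase, -0.46), Apoe (apolipoprotein E, -0.19) and Fgfr3 (a fibroblast growth factor receptor, -0.17) had smaller differences that also passed. Slc1a2 and Gfap were thus not alone among astrocyte genes in being lower. These were 6 of 26 measured genes of that list, against 32.9% of all named genes called lower. Within females 4 of the 26 were called lower, and within males 6. List genes were not followed one by one through the alternative normalizations, which matters most for the small differences. Gria1, which encodes an AMPA receptor subunit found in Bergmann glia and in neurons, was higher in cerebellum by 1.17 ± 0.06 (SE) on the log2 scale (adjusted p 6.62e-16). Gria4, another such subunit, was detected on 1 of 12 cortical and 12 of 12 cerebellar arrays and was at least 2.21-fold higher (adjusted p 1.0e-12).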
